A study of Homo sapiens with 16 samples.

Results

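SEZ6, DPPA2, A1CF, NLRP10, TMEFF2, GPR158, FLRT2 and PPP1R14A are 8 protein-coding genes whose transcripts were near absent in the cholangiocarcinoma libraries labelled NOTCH3 shRNA. They were picked from 23340 gene symbols because their normalised counts were strongly lower in those libraries than in the matched control shRNA libraries. Their difference between these libraries is therefore a description and carries no test. What follows are their levels in all 16 libraries of the study, including experiments in which NOTCH3 was not targeted.

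CCLP1, the cell line used throughout, is an established line from a human intrahepatic cholangiocarcinoma, a tumour of bile duct cells within the liver. Polyadenylated RNA was sequenced in 3 experiments with 2 libraries per group. Experiment 1 held clones that carried an shRNA against HHEX, the gene of the homeodomain repressor PRH, and clones with a scrambled control shRNA, each group made of 2 clones. Experiment 2 held CCLP1 cells without an shRNA, called parental here, that received an adenovirus for myc-tagged PRH or an empty adenovirus, in 2 infections each. Experiment 3 held cells with an shRNA against Notch3 and cells with a non-targeting shRNA, each given the myc-PRH or the empty adenovirus in 2 infections. The infections of a group share their cell line, so their spread does not cover differences between separately made shRNA lines. The labels do not say whether the lines of experiment 3 were clones or pools.

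The 8 genes do not form a pathway. SEZ6 encodes a membrane protein of neurons, and DPPA2 a DNA-binding protein of the early embryo that works with its neighbour DPPA4. A1CF binds RNA and helps the deaminase APOBEC1 to edit the APOB transcript in liver and gut, and NLRP10 belongs to the NOD-like receptors but lacks their leucine-rich repeats. TMEFF2 is a transmembrane protein with follistatin-like and EGF-like domains, GPR158 is a class C G-protein-coupled receptor that holds the RGS7 and GNB5 complex at the membrane, and FLRT2 is a leucine-rich transmembrane adhesion protein that binds UNC5 receptors and latrophilins. PPP1R14A, also known as CPI-17, inhibits myosin light chain phosphatase and is best known from smooth muscle.

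Libraries held 20795552 to 69899040 reads in genes. The labelled targets were looked at first. HHEX had 314 and 326 normalised counts with the PRH shRNA, against 580 and 554 in the controls of experiment 1. In parental cells it had 101992 and 69971 with the PRH virus, against 308 and 423 with the empty virus. In the control shRNA cells of experiment 3 it had 228980 and 330421 against 613 and 715. In the libraries labelled NOTCH3 shRNA it had 71910 and 46576 against 209 and 187, below those controls with either virus. NOTCH3 was not lower in the libraries labelled NOTCH3 shRNA that received the empty virus (655 and 1018 normalised counts) than in their controls (711 and 838). With the PRH virus it stood at 761 and 1086 in the libraries labelled NOTCH3 shRNA and at 2295 and 2488 in the controls. A normalised count is a read count divided by the size factor of its library, and with 2 libraries per group no exact rank test can reach a p of 0.05.

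The libraries labelled NOTCH3 shRNA also had the highest summed level of biliary markers of the study. KRT19, a keratin of bile duct epithelium, stood at 51370 to 63763 normalised counts there and at 0.852 to 55.5 in the control shRNA libraries of experiment 3, beside 11.7 to 36.6 in the parental cells. EPCAM, an epithelial adhesion molecule, stood at 23795 to 34253 against 3.86 to 28.3, and KRT7, another keratin of bile duct epithelium, at 170 to 257 against 0 to 13.5. Summed over 15 cholangiocyte markers, the level was 7121 to 8241 CPM (reads of a gene per 1000000 reads in genes) against 513 to 630, with 13 of 15 against 3 of 15 markers at 1 CPM or more in every library. The parental libraries summed to 450 to 501 CPM and the control clones of experiment 1 to 309 to 676 CPM. The PRH shRNA clones came nearest, at 793 to 3704 CPM, with 11 of 15 markers at 1 CPM or more in every library. Among the other lists, 12 hepatocyte markers summed to 18.3 to 23.0 against 2.02 to 4.67 CPM, 7 endothelial markers to 2.77 to 5.90 against 0 to 0.856, 10 fibroblast markers to 454 to 661 against 770 to 1808, and 8 leukocyte markers to 19.9 to 45.6 against 70.1 to 200 CPM. For 14 neuronal genes the sums were 691 to 1069 against 992 to 1389, and for 9 smooth muscle markers 410 to 610 against 173 to 490. The ranges of the 2 last lists overlapped, and those of the other 5 did not. Fibroblast markers at 1 CPM or more in every library numbered 6 in the libraries labelled NOTCH3 shRNA against 5 in the controls. Leukocyte markers numbered 3 against 1, so the counts of these lists went the other way from their sums. Hepatocyte and endothelial markers each numbered 1 against 0, the direction of their sums. Of defining markers, the fibroblast gene PDGFRA, the T cell gene CD3E, the endothelial receptor gene KDR and the hepatocyte gene TTR were at 0 in all 8 libraries, while the endothelial gene CDH5 and the bile duct chloride channel gene CFTR were at 0 in the controls only. The part of these cell markers in the levels of the 8 genes was not tested. In bulk RNA, fewer cells that express a gene and less RNA of it per cell cannot be told apart.

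In experiment 3, SEZ6 had the highest ratio of control to NOTCH3 shRNA libraries of all 15836 genes that passed the level filter (10 or more normalised counts in 2 or more of the 8 libraries). It stood at 16233 and 17063 normalised counts in control shRNA cells with the empty virus and at 10754 and 12113 with the PRH virus. In the libraries labelled NOTCH3 shRNA it stood at 13.8 and 9.12 with the empty virus and at 8.71 and 14.1 with the PRH virus. The lowest control library was 764-fold above the highest of these, and 46 SEZ6 reads were counted in the 4 together.

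DPPA2 was next among the 8. It stood at 1258 and 1546 normalised counts in control shRNA cells with the empty virus, at 1711 and 1301 with the PRH virus, and at 1.72, 0, 6.97 and 0 in the libraries labelled NOTCH3 shRNA, 10 reads in all. TMEFF2 stood at 278 and 135 in control shRNA cells with the empty virus and at 112 and 96.6 with the PRH virus, and 1 read of it was counted in the 4 libraries labelled NOTCH3 shRNA. Both genes were thus present in every control library and at most at traces in the others.

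GPR158 was the member with no read in any library labelled NOTCH3 shRNA. In the control shRNA cells it stood at 146 and 99.6 normalised counts with the empty virus and at 52.8 and 86.0 with the PRH virus. Against a floor of 3 reads per library, which covers counting error only, the control mean was at least 31.6-fold higher. NLRP10 stood at 187 and 114 with the empty virus and at 11.9 and 68.6 with the PRH virus in the control shRNA cells, and at 0, 0, 1.74 and 2.34 in the libraries labelled NOTCH3 shRNA. The lowest control value of NLRP10 came from 14 reads.

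The other members were low but less even in the libraries labelled NOTCH3 shRNA. A1CF stood there at 1.72 and 0 normalised counts with the empty virus and at 9.58 and 0 with the PRH virus, against 339 and 265 and against 76.6 and 52.2 in the control shRNA cells. FLRT2 stood at 0 and 18.2 with the empty virus and at 0 and 9.38 with the PRH virus, so library A of each group held no read and library B held 16 or 8. PPP1R14A stood at 6.02 and 12.5 with the empty virus and at 27.0 and 1.17 with the PRH virus, against 531 and 382 and against 1331 and 1150 in the control shRNA cells. The groups of the 2 shRNAs did not overlap for any of the 8 genes, by choice. Over all genes tested, 19.2% had all 4 libraries labelled NOTCH3 shRNA below all 4 controls.

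The 8 genes ranked 1, 3, 4, 6, 8, 12, 14 and 15 among 15836 by this ratio of means on the log2(value + 1) scale. Their median log2 ratio was 6.33, and 5.83 with GPR158 set at its bound. FLRT2 was the lowest of the 8, with a mean of 354 normalised counts in the control libraries and 6.91 in the libraries labelled NOTCH3 shRNA. GAGE2A, which followed it and is not among the 8, had means of 53.4 and 0.215. The first 15 places also held 7 genes that were not chosen, CXCL6, CDH11, PCDH15, NETO1, ANGPT1, GNG11 and CSAG1. On this scale the log2 ratio was 5.01 at place 19 (BCAT1) and 4.89 at place 20 (ST8SIA4). By the plain means, without the 1 added, a mean at least 32-fold lower was found for 0.392% of the genes tested, 62 in number. That count also takes in genes with low control means, so it is not on the scale of the ranks.

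**Figure D1:**
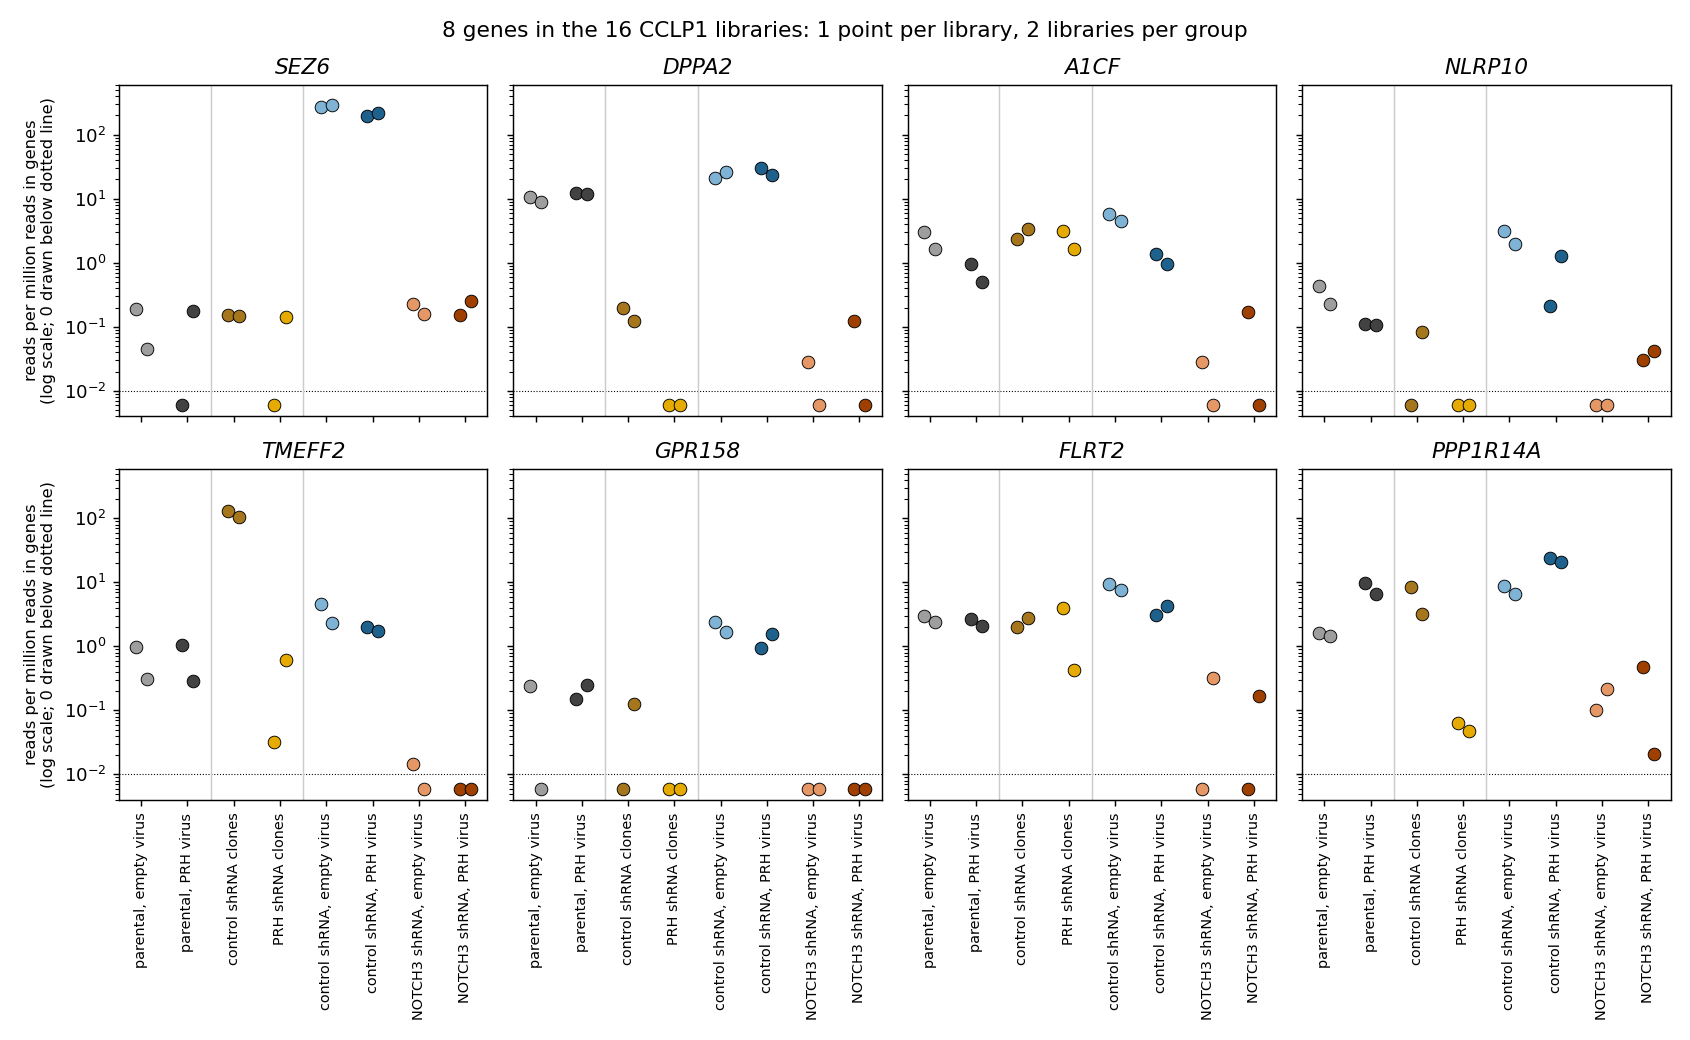
CPM (log scale) of the 8 genes in 16 libraries, 1 point per library and 2 per group; points under the dotted line stand for 0. Grey lines part the 3 experiments. All 8 genes lie below 1 in the 4 libraries labelled NOTCH3 shRNA, SEZ6 lies at 193 to 290 in the 4 control shRNA libraries of experiment 3 and at no more than 0.254 elsewhere, and TMEFF2 is highest in the control clones of experiment 1.

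The other experiments show which of these genes CCLP1 cells expressed without the lines of experiment 3. Levels across experiments are given in CPM, because each table was scaled separately, and no test was made between tables. In the 4 control shRNA libraries of experiment 3, 5 of the 8 genes stood at 1 CPM or more in every library. In the 4 parental libraries this held for DPPA2, FLRT2 and PPP1R14A, in the control clones of experiment 1 for A1CF, FLRT2, PPP1R14A and TMEFF2, and in the PRH shRNA clones for A1CF. SEZ6, GPR158 and NLRP10 stayed below 1 CPM in every library of experiments 1 and 2, as they did in the libraries labelled NOTCH3 shRNA.

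SEZ6 was the extreme case. Its level was 193 to 290 CPM in the control shRNA libraries of experiment 3 and at most 0.254 CPM in the other 12 libraries of the study. Parental cells held 0 to 0.192 CPM, the control clones of experiment 1 held 0.146 and 0.153 CPM, and the PRH shRNA clones 0 and 0.141 CPM. The libraries labelled NOTCH3 shRNA, at 0.153 to 0.254 CPM, overlapped in range with the parental cells. Of 11365 genes with at least 1 CPM in all 4 control shRNA libraries of experiment 3, SEZ6 was the only one whose lowest value there was more than 10-fold above its highest value elsewhere, at 760-fold. Among these genes WNT5B followed at 2.86-fold. GPR158, at 3.79-fold, was outside this count because its lowest control value was 0.947 CPM.

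GPR158 and NLRP10 followed SEZ6 at far lower levels. GPR158 stood at 0.947 to 2.44 CPM in the control shRNA libraries of experiment 3, at 0 to 0.250 CPM in parental cells and at 0 and 0.125 CPM in the control clones of experiment 1. NLRP10 stood at 0.214 to 3.12 CPM in the control shRNA libraries of experiment 3, at 0.107 to 0.433 CPM in parental cells and at 0 and 0.0832 CPM in the control clones. For NLRP10 the range of parental cells overlapped that of the control shRNA cells, through the control library of 14 reads. Neither gene had a read in the PRH shRNA clones.

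DPPA2 and FLRT2 were expressed in parental cells. DPPA2 stood at 9.01 to 12.5 CPM there, against 21.0 to 30.7 CPM in the control shRNA libraries of experiment 3, and the 2 ranges did not overlap. In experiment 1 it was near absent in both groups, at 0.199 and 0.125 CPM in the control clones and at 0 in both PRH shRNA clones. FLRT2 stood at 2.10 to 3.03 CPM in parental cells and at 1.98 and 2.81 CPM in the control clones of experiment 1, close to each other and below the 3.10 to 9.33 CPM of the control shRNA libraries of experiment 3. DPPA2 was therefore absent or nearly so from 8 libraries with different labelled targets, the 4 libraries labelled NOTCH3 shRNA and the 4 clones of experiment 1.

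A1CF and PPP1R14A were expressed in every control set. A1CF stood at 0.953 to 5.68 CPM in the control shRNA libraries of experiment 3, at 0.499 to 3.03 CPM in parental cells and at 1.64 to 3.35 CPM in the 4 clones of experiment 1, and these ranges overlapped. PPP1R14A stood at 6.49 to 23.9 CPM in the control shRNA libraries of experiment 3, at 1.43 to 9.74 CPM in parental cells and at 8.48 and 3.22 CPM in the control clones of experiment 1. TMEFF2 differed from both in being highest outside experiment 3, at 130 and 106 CPM in the control clones of experiment 1 against 1.77 to 4.65 CPM in the control shRNA libraries of experiment 3 and 0.285 to 1.04 CPM in parental cells.

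**Figure D2:**
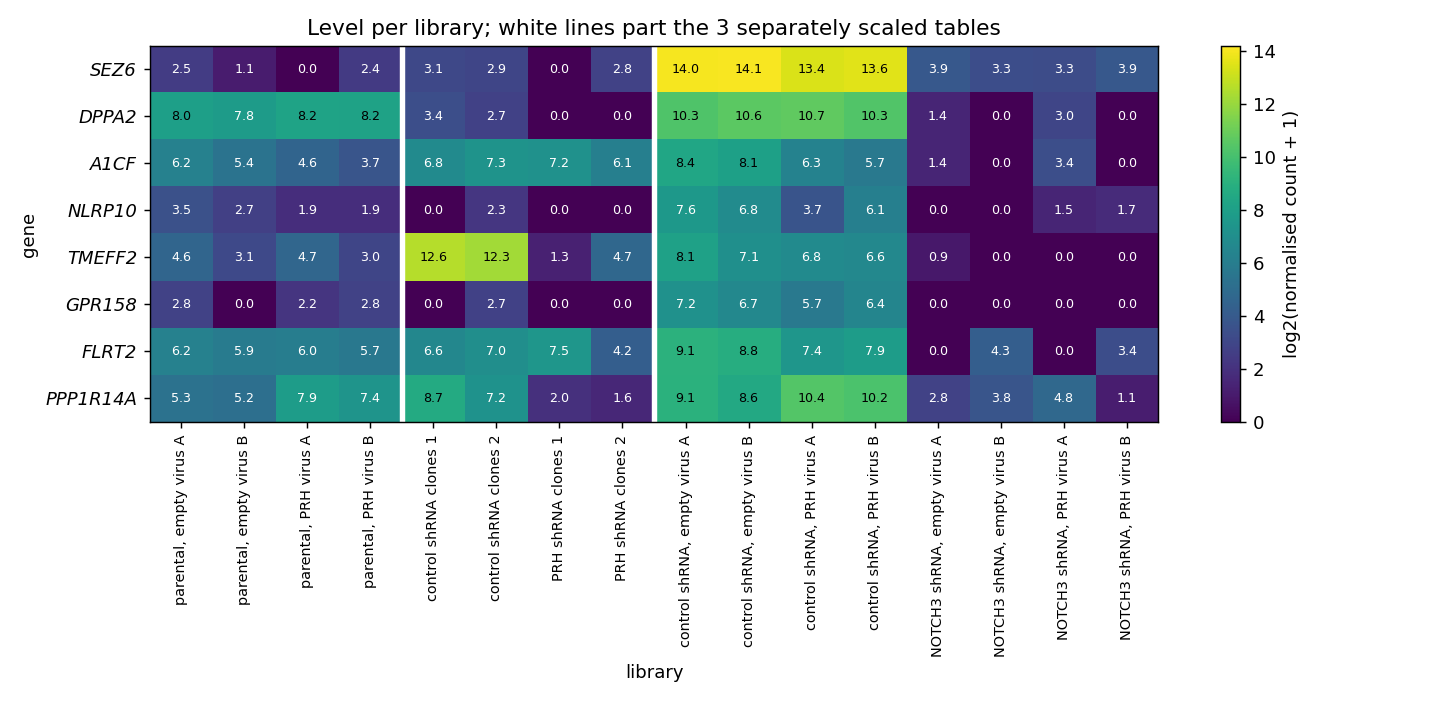
Level of the 8 genes (rows) in each of the 16 libraries (columns) as log2(normalised count + 1), printed in each cell and shaded from dark (0) to bright (high). White lines part the tables, which were scaled separately. The 4 columns at the right are the libraries labelled NOTCH3 shRNA, and the 4 before them are their controls.

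PRH shRNA clones were compared with control clones in experiment 1, which asks what lowering PRH does to these genes. TMEFF2 and PPP1R14A were near absent in both PRH shRNA clones and present in both control clones. With the PRH shRNA, TMEFF2 had 1.45 normalised counts in clone 1 and 25.7 in clone 2, whereas control clone 1 had 6212 and control clone 2 had 4878. PPP1R14A stood at 2.89 and 1.98 against 405 and 148. For both genes the lowest control clone was far above the highest PRH shRNA clone. In CPM, TMEFF2 stood at 0.0321 and 0.611 in the PRH shRNA clones and at 0.285 to 1.04 in parental cells, with overlap. The control clones, at 130 and 106 CPM, thus stood apart from the parental cells for TMEFF2. PPP1R14A stood at 0.0642 and 0.0470 CPM in the PRH shRNA clones, below the 1.43 to 9.74 CPM of parental cells.

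The fitted log2 fold changes were -9.41 (SE 1.17, adjusted p = 0.233) for TMEFF2 and -6.17 (SE 0.84, adjusted p = 0.277) for PPP1R14A, by limma with Benjamini-Hochberg adjustment over 14511 genes. Neither passed the threshold, and 0% of all genes tested did: limma and edgeR called 0 genes, while 959 genes had an unadjusted p under 0.05. With DESeq2 on the recovered reads, 703 genes passed, among them TMEFF2 (adjusted p = 4.09e-23) and PPP1R14A (adjusted p = 8.43e-08). Without any 1 of the 4 libraries, limma called both genes, with adjusted p from 1.18e-30 to 0.00652 for TMEFF2 and from 7.21e-07 to 0.0486 for PPP1R14A. Such a fit leaves 1 clone in a group and takes its replicate spread from the other group alone, so these p-values are no support for a difference. NOTCH3 had 86.8 and 729 normalised counts with the PRH shRNA and 672 and 2065 in the controls, with overlap.

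Cell type markers also moved between these clones. The cholangiocyte markers summed to 793 to 3704 CPM with the PRH shRNA against 309 to 676 CPM in the controls, the hepatocyte markers to 5.24 to 13.6 against 1.14 to 2.12, the endothelial markers to 1.95 to 2.38 against 0.0416 to 0.337 and the fibroblast markers to 640 to 728 against 1069 to 1974. The sums of the smooth muscle, neuronal and leukocyte lists overlapped between the groups. The part of these markers in the levels of TMEFF2 and PPP1R14A was not tested.

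The other members gave no such difference between the clones. A1CF had 143 and 69.3 normalised counts with the PRH shRNA and 111 and 154 in the controls, and the groups overlapped (log2 fold change -0.39, SE 0.69, adjusted p = 1.0 by limma). FLRT2 stood at 178 in PRH shRNA clone 1 and at 17.8 in PRH shRNA clone 2, one above and one below the control clones at 94.4 and 129 (log2 fold change -0.94, SE 1.16, adjusted p = 1.0 by limma). Without PRH shRNA clone 2 both signs turned. SEZ6, DPPA2, NLRP10 and GPR158 had at most 9.51 normalised counts in any clone and were not tested. Groups did not overlap for TMEFF2 and PPP1R14A among the 4 members tested, both lower with the PRH shRNA, against 24% of all genes tested in either direction and 11.7% in that direction.

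Parental cells with the PRH virus were compared with parental cells given the empty virus in experiment 2. PPP1R14A rose from 39.8 and 35.4 normalised counts with the empty virus to 232 and 162 with the PRH virus, a log2 fold change of 2.34 (SE 0.28, adjusted p = 0.00482 by limma). It was the only one of 5 members tested that passed, against 15.6% of all genes tested in either direction and 9.9% that rose. PPP1R14A also passed under every other setting that kept all libraries. The direction was opposite to that in the PRH shRNA clones, where the gene was near absent.

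A1CF was lower with the PRH virus but did not pass. It stood at 23.0 and 12.2 normalised counts with the PRH virus and at 73.7 and 41.0 with the empty virus, with no overlap (log2 fold change -1.65, SE 0.47, adjusted p = 0.0563 by limma). With all libraries kept, the adjusted p by limma ran from 0.0526 with a pseudocount of 5 to 0.107 with no level filter. Without single libraries the log2 fold change of A1CF ran from -2.09 (without PRH virus A) to -1.22 (without PRH virus B). DPPA2 stood at 298 and 293 against 257 and 224 (log2 fold change 0.30, SE 0.17, adjusted p = 0.288 by limma), and FLRT2 at 62.9 and 51.2 against 73.7 and 59.8 (log2 fold change -0.22, SE 0.29, adjusted p = 0.644 by limma). TMEFF2 stood at 24.8 and 6.95 with the PRH virus and at 23.4 and 7.75 with the empty virus, so its libraries differed more within a group than between groups. SEZ6, NLRP10 and GPR158 had at most 10.5 normalised counts in any of these libraries and were not tested. Groups did not overlap for 59.9% of all genes tested.

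The same virus comparison in the control shRNA cells of experiment 3 covered all 8 members, which passed the level filter through these control libraries. The 4 libraries gave lower values with the PRH virus for SEZ6, A1CF, NLRP10, TMEFF2, GPR158 and FLRT2, without overlap of the groups, and higher values for PPP1R14A. For DPPA2 the groups overlapped. Of all genes tested, groups did not overlap for 63.9%, lower with the PRH virus for 30.3% and higher for 33.6%. PPP1R14A stood at 1331 and 1150 normalised counts with the PRH virus and at 531 and 382 with the empty virus, which was the direction of the parental cells. A1CF stood at 76.6 and 52.2 against 339 and 265, also the direction of the parental cells.

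In the fit of all 8 libraries of experiment 3, limma called 0 of the 8 members against 27% of all genes tested. The unadjusted p by limma was under 0.05 for 1 member, against 6041 of the 15836 genes tested. Members called numbered 1 by edgeR and 2 by DESeq2, against 4139 and 4823 of all genes. The log2 fold changes were -2.23 for A1CF (SE 1.09, adjusted p = 0.171), -2.29 for NLRP10 (SE 0.96, adjusted p = 0.111), -1.33 for FLRT2 (SE 1.38, adjusted p = 0.535) and 1.45 for PPP1R14A (SE 0.98, adjusted p = 0.324). They were -0.54 for SEZ6 (SE 0.28, adjusted p = 0.199), -0.89 for TMEFF2 (adjusted p = 0.457), -0.83 for GPR158 (adjusted p = 0.504) and 0.10 for DPPA2 (adjusted p = 0.974). The spread in this fit is shared with the libraries labelled NOTCH3 shRNA, in which these genes had few reads and uneven log2 values. For FLRT2 the libraries A and B with the empty virus held 0 and 16 reads there, and for PPP1R14A those with the PRH virus held 31 and 1.

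A fit of the 4 control shRNA libraries alone, added after the data were seen, gave the same fold changes with smaller standard errors. It called 5 of 8 members, against 35.3% of 14211 genes tested, of which 19.7% rose and 15.6% fell. The members were chosen as high in these libraries and passed the level filter through them. The count of members called is therefore no support for a response of the set, and the fit of all 8 libraries called 0 by limma. PPP1R14A passed as higher with the PRH virus (SE 0.20, adjusted p = 0.000477). A1CF (SE 0.35, adjusted p = 0.00114), SEZ6 (SE 0.09, adjusted p = 0.00167), FLRT2 (SE 0.25, adjusted p = 0.00317) and NLRP10 (SE 0.72, adjusted p = 0.0337) passed as lower. TMEFF2 (adjusted p = 0.111), GPR158 (adjusted p = 0.166) and DPPA2 (adjusted p = 0.691) did not pass with limma in this fit either. In the fit of all 8 libraries, edgeR called SEZ6 (adjusted p = 0.00417), DESeq2 called SEZ6 (adjusted p = 5.37e-05) and A1CF (adjusted p = 0.00800), and limma with a pseudocount of 5 called A1CF (adjusted p = 0.0220) and NLRP10 (adjusted p = 0.0480).

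**Figure D3:**
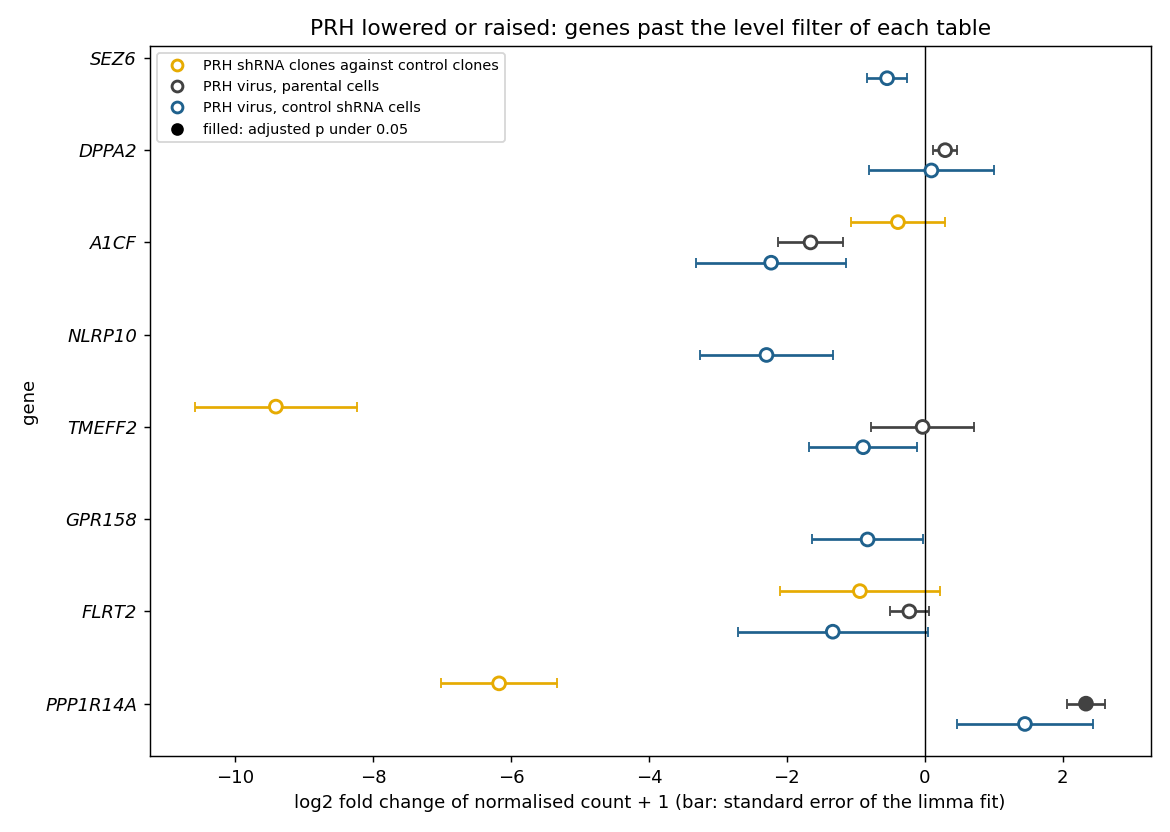
Log2 fold change (x axis, on the log2(normalised count + 1) scale, bars give the standard error) of the members that passed the level filter, for PRH shRNA against control clones, and for the PRH against the empty virus in parental and in control shRNA cells. The filled point is PPP1R14A in parental cells, at 2.34, the single value with an adjusted p under 0.05. TMEFF2 at -9.41 and PPP1R14A at -6.17 in the PRH shRNA clones lie farthest from 0.

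In the libraries labelled NOTCH3 shRNA, the PRH virus moved 0 of the 8 genes past the threshold by limma. The unadjusted p was under 0.05 for 0 of them, against 2736 of the 15836 genes tested. Calls by edgeR and DESeq2 were also 0 of the 8, against 403 and 1097 of all genes. By limma, 2.21% of all genes tested passed. That share stands for 350 genes, and the count was 1 without library A or without library B of the PRH virus, 92 without library A of the empty virus and 1097 with DESeq2. SEZ6, for one, stood at 13.8 and 9.12 normalised counts with the empty virus and at 8.71 and 14.1 with the PRH virus. With 0 to 31 reads per library for each of the 8 genes, a few reads move these values, and a moderate response was not detectable at this depth. The test of whether the virus effect differed between the 2 shRNAs says nothing about these genes, because one side of it lies at the floor by the choice of the members. It called 0 of the 8 by limma, against 8.39% of all genes. The unadjusted p was under 0.05 for 1 of the 8, against 3624 of the 15836 genes. By edgeR it called 0 of the 8 and by DESeq2 1, against 1429 and 2212 of all genes.

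Relatives and partners of the 8 genes were often expressed, and several went the other way in the libraries labelled NOTCH3 shRNA. The lists were chosen for what the genes do, and the relatives compared by shRNA were picked from them after their values were seen, so they are given as values. RBM47, an RNA-binding protein that can stand in for A1CF in APOB editing, stood at 5403 to 7944 normalised counts in the libraries labelled NOTCH3 shRNA and at 1.93 to 11.3 in the controls, where A1CF was expressed. In experiment 1 RBM47 had 707 and 2132 normalised counts with the PRH shRNA and 130 and 53.4 in the controls, while the groups overlapped for A1CF. APOB itself was listed at 0 in all libraries but 1 and APOBEC1 in all but 2, so that the substrate and the enzyme of the editing reaction were absent or at traces.

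Single relatives of NLRP10 and PPP1R14A, named after their values were seen, also stood in this way. NLRP2, another NOD-like receptor, stood at 2312 to 3606 normalised counts in the libraries labelled NOTCH3 shRNA and at 0 to 14.3 in the controls, where NLRP10 was expressed. IL18, a cytokine that inflammasomes process, stood at 1159 to 2094 against 0 to 7.17. PPP1R14C, like PPP1R14A an inhibitor of protein phosphatase 1, stood at 211 to 588 against 0 to 8.20. PPP1R14B, the other widely expressed member of that family, stood at 3598 to 5279 against 4056 to 5419, and the ranges overlapped. Higher values were not particular to the libraries labelled NOTCH3 shRNA. In the PRH shRNA clones against the control clones, the log2 fold changes of NLRP2, IL18 and PPP1R14C were 3.39, 4.23 and 4.21, none past the threshold by limma. PPP1R14A was lower in those clones, and NLRP10 had at most 3.82 normalised counts in any clone.

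The lists of the remaining members gave a mixed picture. DPPA4, the partner of DPPA2, was listed at 0 in all 16 libraries, as were DPPA3, DPPA5 and NANOG, so DPPA2 was expressed without them. TDGF1, a co-receptor of Nodal signalling known from pluripotent cells, stood at 679 to 954 normalised counts in the libraries labelled NOTCH3 shRNA and at 0 in all 4 controls, opposite to DPPA2. In the PRH shRNA clones its log2 fold change was 3.35, not past the threshold by limma, and DPPA2 was near absent in every clone. TMEFF1, a relative of TMEFF2, stood at 0 to 15.7 against 14.3 to 32.4, with overlap. RGS7BP, a membrane anchor of RGS7, was listed at 0 in all 16 libraries, and RGS7, the partner of GPR158, stood at 0 to 14.9. FLRT1 stood at 45.6 to 188 in the libraries labelled NOTCH3 shRNA and at 50.9 to 232 in the controls, with overlapping ranges, and SEZ6L2 at 1290 to 2743 against 933 to 4422.

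**Figure D4:**
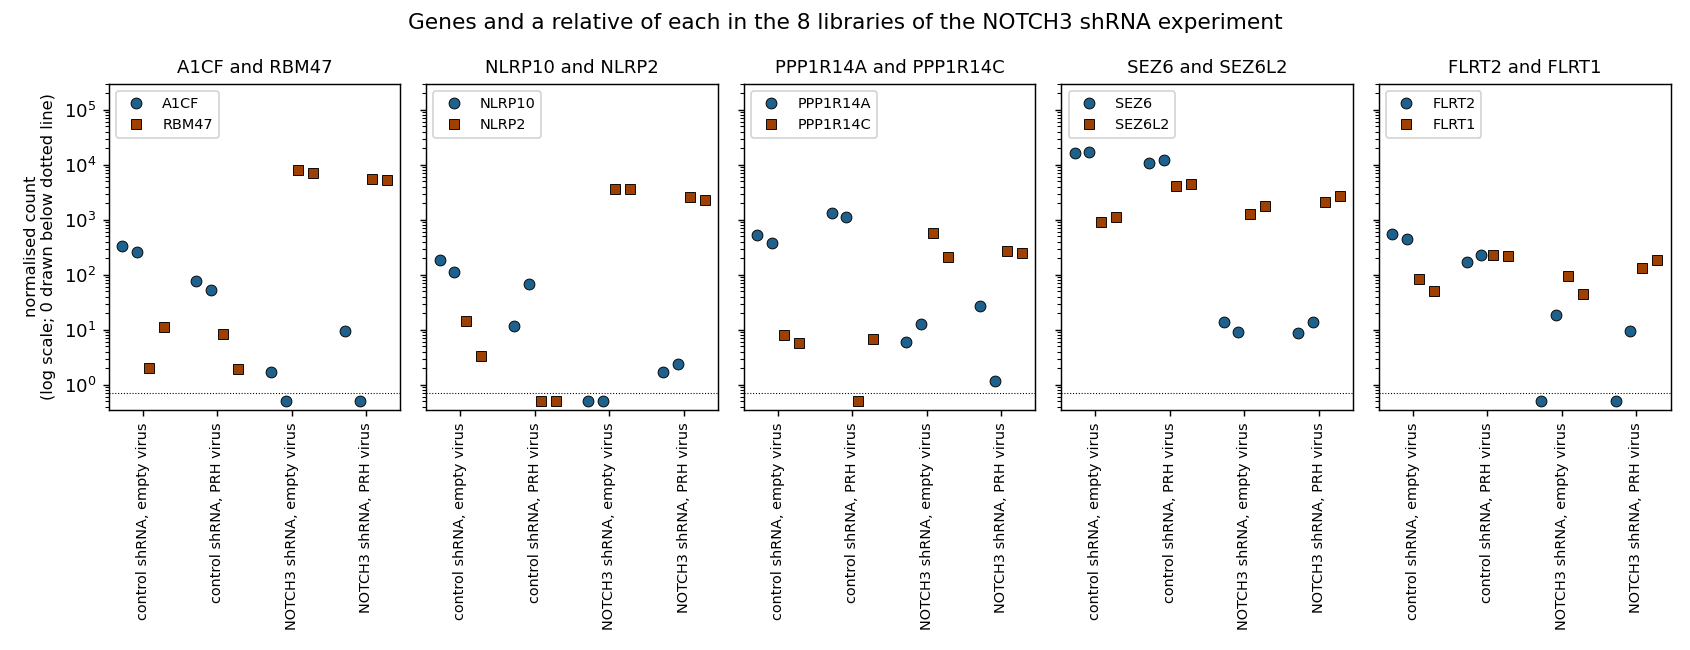
Normalised counts (log scale, points under the dotted line stand for 0) of 5 of the genes (circles) and 1 relative of each (squares) in the 8 libraries of experiment 3. RBM47, NLRP2 and PPP1R14C are high in the 4 libraries labelled NOTCH3 shRNA, where A1CF, NLRP10 and PPP1R14A are near 0, while the values of SEZ6L2 and FLRT1 overlap between the shRNAs.

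Among these relatives and partners, some responded to the PRH virus. SEZ6L2 rose with the PRH virus in parental cells (log2 fold change 1.37, SE 0.14, adjusted p = 0.00338 by limma) and in control shRNA cells (2.06, SE 0.18, adjusted p = 0.000101). FLRT1 rose in both (1.49, adjusted p = 0.0317, and 1.79, adjusted p = 0.0223, by limma). SEZ6 and FLRT2 themselves had lower values with the PRH virus in the control shRNA cells, the opposite direction, and the difference between family members was not tested.

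In the list of FLRT proteins and their receptors, 2 of 9 tested genes besides FLRT2 rose and 2 fell in parental cells, and 4 rose and 2 fell in control shRNA cells. Of all genes tested, 15.6% passed in parental cells and 27% in control shRNA cells, which are the shares to read this and the following lists against. UNC5C, a netrin receptor that FLRT proteins bind, fell in parental cells (-1.12, adjusted p = 0.0246 by limma) and in control shRNA cells (-2.77, adjusted p = 0.000360). The latrophilin LPHN2 fell in both (-0.56 and -0.90), and LPHN1 rose in both (0.76 and 0.66). The median log2 fold change of the list was 0.00 in parental cells and 0.66 in control shRNA cells, beside -0.01 and 0 for all genes tested.

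In the list of myosin phosphatase genes, 2 of 12 tested genes besides PPP1R14A rose and 1 fell in parental cells, and 1 of 14 rose and 6 fell in control shRNA cells. ROCK2, a kinase that inhibits myosin phosphatase, fell in both (-0.45, adjusted p = 0.0232, and -0.85, adjusted p = 0.00540, by limma). ILK, a kinase that can phosphorylate PPP1R14A, fell in control shRNA cells (-0.86, adjusted p = 0.000186 by limma). The list had a median of -0.03 in parental and -0.36 in control shRNA cells. PPP1R14A thus had higher values with the PRH virus in a list in which most called genes of the control shRNA cells fell.

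Of the A1CF partners, 0 of 4 tested genes passed in parental cells and 2 of 5 fell in control shRNA cells, the RNA-binding proteins CELF2 (-1.36, adjusted p = 0.000162 by limma) and KHSRP (-0.41, adjusted p = 0.0239). Of the NOD-like receptor and inflammasome list, 1 of 5 rose in parental cells, and 3 of 10 rose and 2 fell in control shRNA cells; NLRX1, a mitochondrial member, rose in both (0.88, adjusted p = 0.0231, and 0.99, adjusted p = 0.000874, by limma). Of the TMEFF list, 2 of 5 rose in parental and 2 of 5 in control shRNA cells, and of the GPR158 list 1 of 4 and 2 of 7 rose. PDGFA, a growth factor that TMEFF2 binds, rose in both (1.05, adjusted p = 0.0186, and 1.54, adjusted p = 0.00112, by limma), and so did GNB5, of the RGS7 complex (0.51, adjusted p = 0.0306, and 0.58, adjusted p = 0.00922). Of the pluripotency list none passed, of 1 tested gene in parental cells and 3 in control shRNA cells. In the PRH shRNA clones 0 genes of any list passed by limma, as for all genes.

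The 6 genes whose profile was most like the mean of the 8 were C19orf45, CLCN5, ZNF530, PXDC1, TAF4B and CUBN. Likeness is Pearson's r of log2(normalised count + 1), centred within each table, over 16 libraries and 13123 candidate genes, and it ran from 0.967 to 0.977 for these 6. It is set largely by the split between the shRNAs of experiment 3, which chose the members. CLCN5, a chloride and proton exchanger, stood at 13630 to 17385 normalised counts in the control shRNA libraries of experiment 3 and at 4289 to 5690 in the libraries labelled NOTCH3 shRNA. CUBN, a receptor for endocytosis, stood at 1650 to 3293 against 566 to 692. These genes were thus lower, not absent, in the libraries labelled NOTCH3 shRNA.

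For single members, the gene most alike was KCTD12 for SEZ6 (r = 0.963), TAF4B for DPPA2 (0.983), FTSJ1 for A1CF (0.949), USP24 for NLRP10 (0.958), PNMA1 for TMEFF2 (0.956), STARD9 for GPR158 (0.965), KBTBD11 for FLRT2 (0.975) and HOMER2 for PPP1R14A (0.936), each over 16 libraries. KCTD12 stood at 1772 to 2527 normalised counts in the control shRNA libraries and at 67.1 to 148 in the libraries labelled NOTCH3 shRNA, but at 1578 to 2185 in parental cells, where SEZ6 was near absent. Among the 28 pairs of members, r over the 16 libraries ran from 0.642 (TMEFF2 and FLRT2) to 0.953 (SEZ6 and DPPA2). The 16 libraries include those whose split between the control shRNA and the NOTCH3 shRNA label chose the members. High r between members was therefore fixed in part by that choice and is no test of whether they vary together. Values of r between members without those libraries are not given.

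The members lie on 7 chromosomes, SEZ6 on 17, DPPA2 on 3, A1CF and GPR158 on 10, NLRP10 on 11, TMEFF2 on 2, FLRT2 on 14 and PPP1R14A on 19. Several genes next to them, by the gene order of RefSeq on GRCh38.p14, were expressed in the libraries labelled NOTCH3 shRNA. PHF12, beside SEZ6, stood at 5755 to 5972 normalised counts there and at 7151 to 8578 in the control shRNA libraries, so the gene beside SEZ6 was expressed where SEZ6 was not. SDPR, beside TMEFF2, stood at 494 to 837 against 4002 to 10536, and PRKG1, beside A1CF, at 162 to 367 against 854 to 3361. Both neighbours were lower without being absent. SPINT2, beside PPP1R14A, went the other way, at 25068 to 29371 against 1588 to 5098, and MORC1 and DPPA4, on either side of DPPA2, were listed at 0 in all libraries of experiments 2 and 3.

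Promoter windows are shown so that the content of CG, the target of DNA methylation, can be compared between the genes. The 8 genes were near absent together by choice. Methylation was not measured, and its part in their levels was not tested. Each window runs from 250 bases before to 50 bases after a RefSeq start on GRCh38.p14, reads 5′ to 3′ on the strand of the gene, and has every CG in capitals. The table held 6 of the 8 members, and 5 are shown. They are DPPA2 at chr3:109316468-109316767 (minus strand), A1CF at chr10:50885578-50885877 (minus strand), TMEFF2 at chr2:192194884-192195183 (minus strand), GPR158 at chr10:25174751-25175050 (plus strand) and PPP1R14A at chr19:38256325-38256624 (minus strand).
DPPA2 promoter: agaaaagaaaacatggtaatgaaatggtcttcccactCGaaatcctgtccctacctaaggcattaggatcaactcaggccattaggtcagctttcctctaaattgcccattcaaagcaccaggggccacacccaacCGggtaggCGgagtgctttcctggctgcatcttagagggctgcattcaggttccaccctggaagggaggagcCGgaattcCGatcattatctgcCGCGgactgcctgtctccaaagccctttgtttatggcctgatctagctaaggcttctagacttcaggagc
A1CF promoter: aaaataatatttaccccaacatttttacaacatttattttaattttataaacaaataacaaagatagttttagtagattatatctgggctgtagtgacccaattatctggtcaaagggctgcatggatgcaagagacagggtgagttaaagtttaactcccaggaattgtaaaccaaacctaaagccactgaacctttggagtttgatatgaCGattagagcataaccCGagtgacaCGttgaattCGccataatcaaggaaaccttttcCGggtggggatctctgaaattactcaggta
TMEFF2 promoter: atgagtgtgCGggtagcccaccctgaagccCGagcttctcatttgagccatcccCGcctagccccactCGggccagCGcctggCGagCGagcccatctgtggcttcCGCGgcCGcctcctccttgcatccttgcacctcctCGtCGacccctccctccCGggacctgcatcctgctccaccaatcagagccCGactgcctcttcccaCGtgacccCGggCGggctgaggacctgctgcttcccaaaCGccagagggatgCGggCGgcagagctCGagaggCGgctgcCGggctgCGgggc
GPR158 promoter: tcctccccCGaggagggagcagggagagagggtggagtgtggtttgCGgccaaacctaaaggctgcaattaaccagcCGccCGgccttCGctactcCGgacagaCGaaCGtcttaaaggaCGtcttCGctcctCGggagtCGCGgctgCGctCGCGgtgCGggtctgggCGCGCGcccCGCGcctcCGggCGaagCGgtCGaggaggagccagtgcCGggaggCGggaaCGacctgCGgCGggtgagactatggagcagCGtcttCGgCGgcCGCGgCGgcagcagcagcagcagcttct
PPP1R14A promoter: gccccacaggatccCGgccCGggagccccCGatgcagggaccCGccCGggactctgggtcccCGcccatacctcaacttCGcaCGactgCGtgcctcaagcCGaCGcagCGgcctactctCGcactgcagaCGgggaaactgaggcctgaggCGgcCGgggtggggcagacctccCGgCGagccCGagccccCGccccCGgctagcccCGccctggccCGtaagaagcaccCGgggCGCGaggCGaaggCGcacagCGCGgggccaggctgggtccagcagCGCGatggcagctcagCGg

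These windows were not alike in CG content. GPR158 had 37 CG, PPP1R14A 33 and TMEFF2 24, while DPPA2 had 7 and A1CF 5, and the median of 35116 windows of the same length was 14 (quartiles 4 and 28). FLRT2 had 3 windows with 19, 22 and 25 CG. The members with a window thus had CG counts on both sides of the median, a description of sequence only. TGGGAA, the core of the sequence bound by RBPJ, the DNA-binding protein of the Notch pathway, was searched on both strands. It was found once in the DPPA2 window and in 2 places in the TMEFF2 window, all on the reverse strand as TTCCCA, and in none of the other windows of the members, beside 24.0% of all windows. The strand setting of the read counting is not given in the sources used here, so reads from transcripts antisense to a gene cannot be told apart from its own.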

How the data were processed

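In the submitters' processing notes, the authors name Trim Galore, TopHat, featureCounts and DESeq2, and the hg19 build, with versions not given in the sources used here. Signal values as deposited are counts per gene that were divided by a size factor of their library, separately in each of 3 tables. Every value was a whole multiple of a single step of its library (100%, tolerance 1e-06), which gave back the reads. Of 23368 rows, 28 with a date in place of a symbol (0.208% to 0.276% of reads) were left out. In experiments 2 and 3 no column shows a replicate number, so A and B are names only. In the libraries labelled NOTCH3 shRNA, library A of either virus was deeper than library B. It also had more genes with a read, 17169 and 16970 against 15639 and 15665. Whether A and B pair across the viruses was not tested, and the replicate block was fitted for experiment 1 only. The label "empty" was kept for the experiment 2 controls, whose columns name a GFP virus. Replicate libraries differed beyond counting noise. P-values measure the spread between libraries of 1 cell line.

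The members and lists were chosen with earlier results of these data known. Genes named besides the 8 members are HHEX and NOTCH3, the most alike profiles, list genes called in a tested comparison (up to 3 a list by smallest p), the extremes of a list, and genes said to be picked after their values were seen. A gene of the myosin phosphatase list that this rule would name is not reported here. Log2(value + 1) entered limma 3.58.1 in R 4.3.3, as group means with an intensity trend, after a filter of 10 normalised counts in 2 libraries of the table. Calls needed an adjusted p under 0.05 (Benjamini-Hochberg over all genes tested). Fold changes on this scale understate changes of low genes. The 8 libraries of experiment 3 shared 1 fit. Alternatives were a pseudocount of 5, no level filter, equal library totals, edgeR 4.0.16 and DESeq2 1.42.0 on the recovered reads, each library left out in turn (its group then has 1 library, assumed to vary like the others), a replicate block, and the control shRNA libraries alone. The fit was tested on simulated data. The floor of 3 reads covers counting error only, and reads without molecular identifiers do not count molecules.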

Additional observations from a re-analysis of the deposited data

How the results depend on the processing

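PPP1R14A in parental cells passed under all settings that kept every library. Without single libraries, which leaves a group of 1, its log2 fold change ran from 2.08 to 2.60. Over all genes, PRH shRNA against control shRNA gave 0 calls, 703 with DESeq2, 10 with the replicate block and 32 to 781 without single libraries. The labels of experiment 1 number the clones but do not say whether same-numbered clones were handled together. Deviations of same-numbered clones correlated at 0.58 over 14511 genes, which the main fit did not take into account. Under the replicate block TMEFF2 had an adjusted p of 0.0813 and PPP1R14A of 0.112 by limma. Calls for the PRH virus numbered 2073 in parental cells (1314 to 2101 without single libraries), 4282 in control shRNA cells (2208 to 2891 without single libraries of that comparison) and 350 in the libraries labelled NOTCH3 shRNA (1097 with DESeq2, 1 to 376 without single libraries). For the difference between shRNAs they numbered 1329 (2212 with DESeq2, 499 to 1155 without single libraries). The median log2 ratio of the members ran from 6.23 to 6.84 without single libraries.

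Signs turned for values near 0 or set by 1 library. Without PRH shRNA clone 2, the log2 fold change of A1CF was 0.13 and that of FLRT2 was 0.69, and without clone 1 they were -0.91 and -2.56. TMEFF2 in parental cells gave 0.0255 with edgeR and 0.0252 with DESeq2, and from -0.88 to 0.82 without single libraries (0.82 without PRH virus B, 0.71 without empty virus A). DPPA2 in control shRNA cells ran from -0.10 (without PRH virus A) to 0.30 without single libraries, with -0.05 without empty virus A. Of 165 values of single genes under other settings, 135 kept their direction and side of the threshold, 22 came to pass it and 8 turned, and the cause was not tested. Genes near 0 reads in a group are limited by depth.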
